A study of Saccharomyces cerevisiae with 7 samples.

Results

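RNA polymerase I is the enzyme that makes the long precursor of the ribosomal RNAs. The genes described here code for 9 of its subunits (RPA190, RPA135, RPA49, RPA43, RPA34, RPA14, RPA12, RPC40 and RPC19) and for its initiation factor Rrn3, 10 genes of 6141 open reading frames in the table. They were listed by name because they belong to this enzyme, and the group was chosen by its 6 h values: RPA43 and RPA190 lay on opposite sides of the starting level at that time. The 6 h values therefore describe why the genes were picked, and the tests leave them out, apart from 1 alternative that adds the 6 h array. RPA12 has a value at 6 h only and RPC19 has none, so 8 of the 10 have a value at all 7 times, as do 5585 open reading frames in all.

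Budding yeast (Saccharomyces cerevisiae) of the Spo11Y135F mutant was sampled at 1, 2, 3, 4, 5, 6 and 8 h of meiosis. Spo11 makes the DNA breaks that start meiotic recombination, and the allele replaces its catalytic tyrosine. All 7 samples carry the mutation per their titles, which the longer descriptions repeat from 3 h on, and no unmutated strain was analysed here. Each array compared mRNA of 1 time, labelled with Cy5, with a pool of mRNA of the time course, labelled with Cy3. The deposited value is that ratio on the log2 scale, expressed against its level at 0 h, so that 1 means 2-fold above 0 h and -1 means 2-fold below it. Per the design text 2 independent cultures were used, but each time has 1 column, so n = 1 per time and a single value has no replicate error. The values are shares of the mRNA of a whole culture: fewer cells expressing a gene and less of its mRNA per cell cannot be told apart. The culture showed the meiotic programme, with the regulator NDT80 at 1.51 at 1 h and 7.47 at 6 h and the spore wall gene DIT1 at 8.52 at 8 h. Over all genes the column medians lay between -0.15 (6 h) and 0.03 (1 h), and the standard deviation was largest at 6 h (1.49) and smallest at 2 h (0.84). The 6 h column also has a different set of empty rows from the others, and whether it was set against the same 0 h measurement is not stated, so folds to 0 h at 6 h carry that limit.

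Transcription of the ribosomal DNA by RNA polymerase I is the main control point of ribosome production, and it is turned down when yeast runs short of nutrients. The enzyme is built around its large subunits, Rpa190 and Rpa135, which form the active centre. Rpc40 and Rpc19 form an assembly platform that RNA polymerase III also uses, Rpa43 and Rpa14 form the stalk, Rpa49 and Rpa34 form a dimer that helps the enzyme initiate and elongate, and Rpa12 acts in RNA cleavage and termination. Rrn3 binds the stalk and makes the enzyme able to start at the ribosomal DNA promoter.

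The transcripts of these genes did not share a course. Leaving aside the 6 h array, RPA190 was lowest at 5 h (-1.98) and RPA43 highest at 8 h (1.46). RRN3 had its highest values at 1 and 2 h and RPC40 its lowest at those times. RPA34 and RPA49 stayed within 2-fold of 0 h apart from RPA34 at 8 h. At 6 h RPA190, RPA135 and RPA14 were at or below -1 and RPA43 was 10.7-fold above 0 h. The opposite 6 h values of RPA190 and RPA43 chose the group, so they are a description only. In the trend test over the arrays that the choice of genes had not used, none of the 8 passed, and nor did any other gene.

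Both large subunits were past 2-fold below 0 h at 6 h, whose values chose the group, and at 8 h. At 8 h RPA135 was so only narrowly, at -1.02, and no longer with centred columns (-0.97). RPA190 (YOR341W), the largest subunit, was at -0.34, 0.26, 0.13, -0.84, -1.98, -2.52 and -1.23 at 1, 2, 3, 4, 5, 6 and 8 h. Its values were close to 0 h up to 3 h and at least 2-fold below it at 5, 6 and 8 h, with the 6 h value 5.74-fold below. At 5 h RPA190 stood at the 4.57th percentile of all genes and at 8 h at the 7.13th. RPA135 (YPR010C), its partner in the active centre, was at 0.29, -0.69, -0.55, -0.51, -0.91, -1.62 and -1.02 at the same times. It was above 0 h only at 1 h, and past 2-fold below it at 6 and 8 h. The course of RPA135 was flatter than that of RPA190: from 3 to 5 h RPA190 went through steps of -0.97 and -1.14, and RPA135 through steps of 0.04 and -0.40.

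The genes of the stalk went separate ways. RPA43 (YOR340C), which carries the contact with Rrn3, was at -0.04, -0.50, -0.33, 0.81, 1.29, 3.42 and 1.46 at 1, 2, 3, 4, 5, 6 and 8 h. All 3 values up to 3 h were below 0 h and all 4 later ones above it, and the step from 3 to 4 h was 1.13. At 5 and 8 h RPA43 stood at the 88.2nd and 92.8th percentiles of all genes. The choice did not use these values, but they adjoin 6 h in the same time course and are not independent of it. Its 6 h value exceeded the mean of its 5 and 8 h values by 2.04, or by 1.04 after quantile normalization; as a measure that uses the 6 h value it is a description. RPA14 (YDR156W), the other stalk gene, was at -1.11, -1.28, -0.96, -1.29, -1.85, -1.98 and -0.61. It was below 0 h at every time, already at 1 h, and past 2-fold below it at 5 of the 7.

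**Figure D1:**
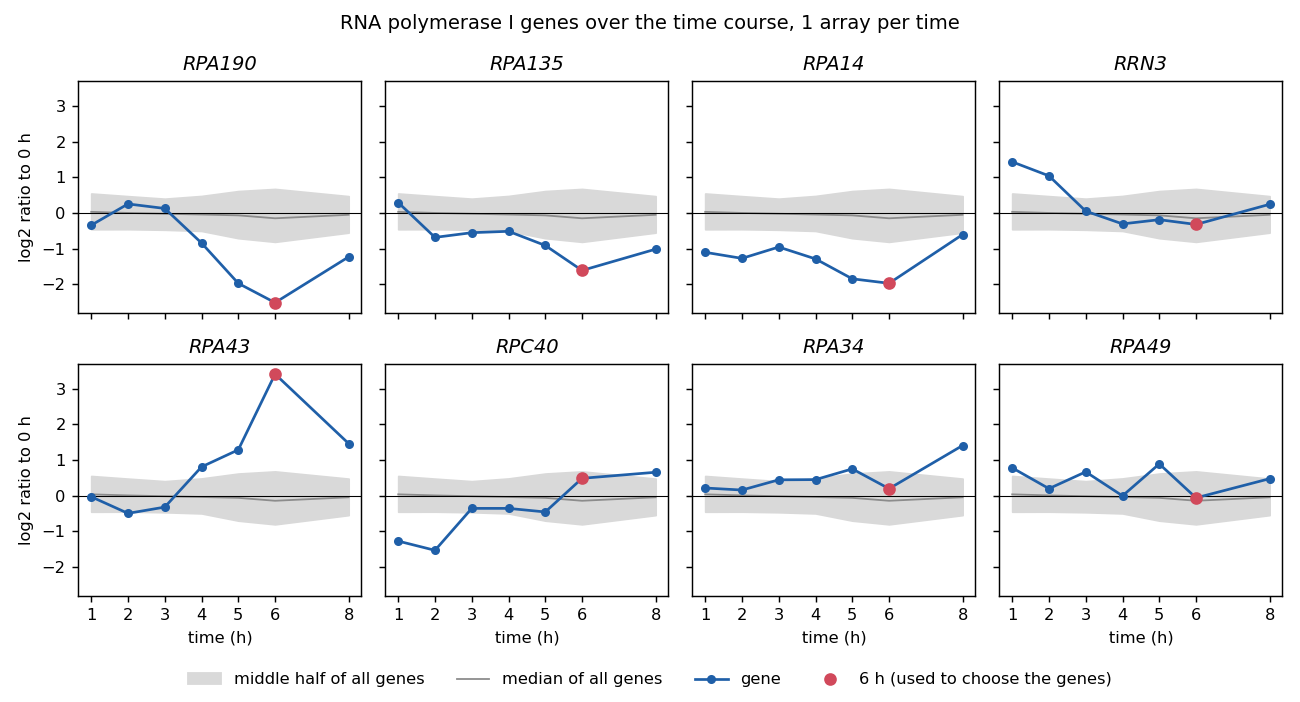
Log2 ratio to 0 h (vertical axis) against time in hours (horizontal axis) for the 8 genes with all values. Blue points are 1 array each, the red point is the 6 h value used to choose the genes, the grey line is the median of all genes and the grey band their interquartile range. RPA190 goes down to -2.52 and RPA43 up to 3.42 at 6 h, RPA14 stays below 0 throughout, and RRN3 starts at 1.44.

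RPC40 (YPR110C), the platform gene shared with RNA polymerase III, was at -1.28, -1.54, -0.36, -0.36, -0.46, 0.48 and 0.65 at 1, 2, 3, 4, 5, 6 and 8 h. It was the lowest of the 8 genes at 1 and 2 h, and its largest step, 1.18, fell between 2 and 3 h. RPC19 (YNL113W), which pairs with it, has no value. RPA12 (YJR063W), the cleavage and termination subunit, was at -1.61 at 6 h, its single value, close to that of RPA135 at the same time.

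The genes of the Rpa49 and Rpa34 dimer stayed within 2-fold of 0 h, apart from RPA34 at 8 h. RPA49 (YNL248C) was at 0.78, 0.19, 0.67, -0.01, 0.89, -0.07 and 0.47 at the 7 times, a range of 0.95 and the narrowest of the 8. RPA34 (YJL148W) was at 0.21, 0.15, 0.44, 0.45, 0.75, 0.19 and 1.41. Its values were above 0 h at every time, and the 8 h value was its only one past 2-fold. RRN3 (YKL125W), the initiation factor, was at 1.44, 1.05, 0.05, -0.31, -0.19, -0.32 and 0.25. The highest values of this gene came first: at 1 h RRN3 stood at the 96.1st percentile of all genes, and from 3 h on it lay within 0.32 of 0 h.

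Counted at each time, the 8 genes were at least 2-fold from 0 h about as often as other genes. At 1 h 1 of 8 was at least 2-fold above (RRN3) and 2 below (RPA14, RPC40), against 10.8% and 9.44% of all genes. At 2 h the same genes gave 1 above and 2 below (8.68% and 9.35% of all genes). At 3 h there was none in either direction (7.68% and 8.43%), and at 4 h none above and 1, RPA14, below (11.5% and 10.7%). The later arrays held more genes past 2-fold overall. At 5 h 1 was above (RPA43) and 2 below (RPA190, RPA14), against 16.3% and 17.4%, and at 8 h 2 were above (RPA43, RPA34) and 2 below (RPA190, RPA135), against 12.3% and 10.8%. At 6 h, whose values chose the group, 1 was above and 3 below, beside 18.9% and 19.5% of all genes. Read against these shares, the counts give no result about the enzyme's genes as a group. The median of the 8 stayed between -0.33 (4 h) and 0.36 (8 h), with the median of all genes at -0.04 and -0.05 at those times.

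With 1 array per time, tests were limited to fits across the times. A line in hours was fitted to the arrays of 1, 2, 3, 4, 5 and 8 h with limma for 5635 genes, so that scatter around the line is the error. RPA43 and RPC40 had the steepest positive slopes, 0.29 ± 0.08 and 0.29 ± 0.07 log2 per hour (SE), and RPA190 the steepest negative one, -0.23 ± 0.10. None of the 8 passed at an adjusted p of 0.05: the limma adjusted p was 0.0883 for RPC40, 0.108 for RPA43, 0.138 for RPA34, 0.251 for RPA190, 0.274 for RPA135, 0.350 for RRN3, 0.790 for RPA14 and 0.986 for RPA49. Over all genes this test called 0% rising and 0% falling, so it separates no gene from the rest. At an unadjusted p of 0.05, 1150 of the 5635 genes passed, among them RPC40, RPA43 and RPA34.

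A comparison of the 4, 5 and 8 h arrays with those of 1, 2 and 3 h, run as an alternative with limma, called 4.03% of genes higher and 0.444% lower. RPA43 was 1 of them: its mean was -0.29 at the earlier and 1.18 at the later times, a difference of 1.47 ± 0.33 (SE; limma adjusted p = 0.0306). RPA190, with means of 0.01 and -1.35, was lower by 1.37 ± 0.38 and did not pass (limma adjusted p = 0.0729). The call of RPA43 held without the 4 h array and was lost when any other of the 6 arrays was left out, with differences from 1.33 to 1.66 and limma adjusted p from 0.0287 to 0.181. RPA190 passed when the 4 h array was left out, at -1.62 with a limma adjusted p of 0.0488. RRN3 passed on the line without the 8 h array (-0.46 log2 per hour, limma adjusted p = 0.0421), a setting that called 5.36% of all genes rising and 4.01% falling.

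**Figure D2:**
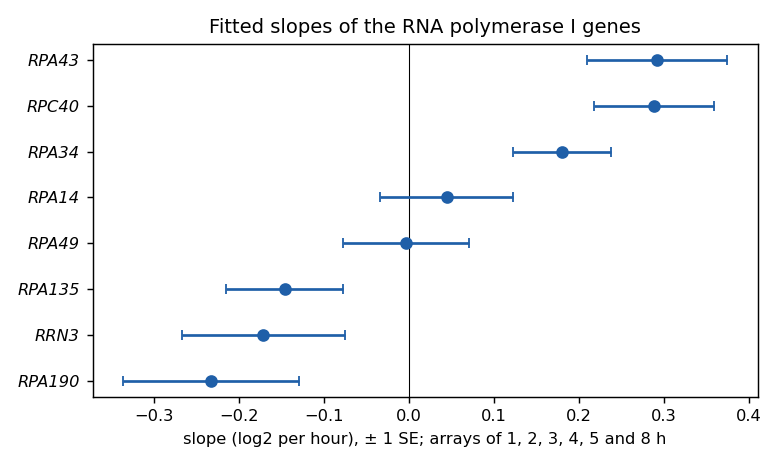
Fitted slope in log2 per hour (horizontal axis) for each of the 8 genes, from the arrays of 1, 2, 3, 4, 5 and 8 h, with bars of 1 SE. RPA43 and RPC40 lie at 0.29 and RPA190 at -0.23, and no slope passed the threshold after adjustment over all genes.

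RPA43 and RPA190 are neighbours on the chromosome and are read away from each other, so that 1 stretch of DNA lies upstream of both. RPA43 minus RPA190 was 0.31, -0.76 and -0.45 at 1, 2 and 3 h, and 1.65, 3.26, 5.94 and 2.70 at 4, 5, 6 and 8 h. Up to 3 h the difference was of either sign and below 1, and from 4 h on RPA43 was the higher at each time. The same difference, without its sign, was taken for all 1131 neighbouring pairs that are read apart and have all values. Its median over these pairs was 0.71 at 4 h, 0.89 at 5 h and 0.72 at 8 h. At 4, 5 and 8 h, which the choice did not use, the pairs with a larger difference than RPA43 and RPA190 numbered 204, 63 and 61. The courses of RPA43 and RPA190 ran opposite: over the 6 arrays without that of 6 h their Pearson r was -0.93, and 5 of the 1131 pairs were lower. With the 6 h array, whose opposite values chose the group, r was -0.94. These correlations have 6 and 7 points from 1 time course and are given as descriptions. Successive samples depend on each other, so the other times are not independent of the choice made at 6 h. The numbers of pairs past RPA43 and RPA190 are therefore descriptions too.

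RPA43 resembled instead the gene on its other side. UBC11 (YOR339C), which codes for a ubiquitin-conjugating enzyme, lies downstream of RPA43 and is read in the same direction. UBC11 was at -1.25, -0.30, -1.22, 0.55, 1.66, 4.70 and 3.09 at 1, 2, 3, 4, 5, 6 and 8 h. Like RPA43 it was below 0 h at the first 3 times and above it at the last 4, with its highest value at 6 h. Their r without the 6 h array was 0.90, and of 2148 neighbouring pairs read in the same direction 69 had a higher one; over all 7 arrays it was 0.95. UBC11 was 2.68 ± 0.57 (SE) higher at 4, 5 and 8 h than at 1, 2 and 3 h (limma adjusted p = 0.0225). Leaving out the array of 1, 3 or 5 h ended this call, with differences from 2.02 to 3.29 and adjusted p from 0.00365 to 0.0982 over the 6 omissions. Whether signal of UBC11 enters the row of RPA43 was not tested, since the probes of the array are not named in the sources used here.

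The next gene, YOR338W, is read towards UBC11 and was at 0.66, 1.37, 2.27, 4.44, 5.15, 4.97 and 3.65. It was above 0 h from the start and highest at 5 h, before RPA43 and UBC11. Beyond RPA190 lies YOR342C, read towards it, at -0.23, -0.52, -1.37, -0.79, -0.31, 2.72 and -0.59, so that its 6 h value alone was above 0 h. YOR343C, after that, stayed between -0.73 and -1.63. Among the 6 genes, 3 (UBC11, RPA43 and YOR342C) had their highest value on the 6 h array.

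**Figure D3:**
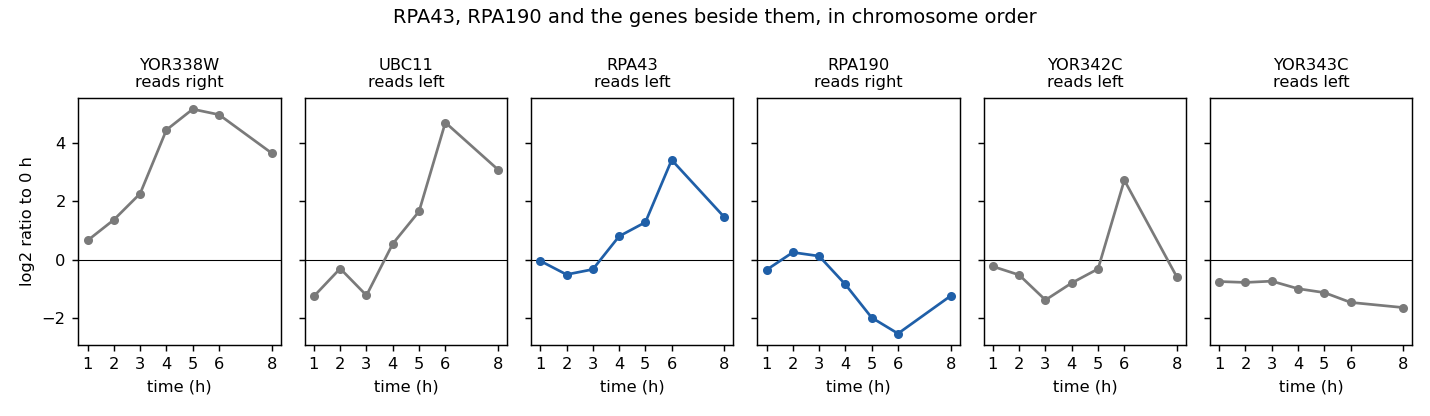
Log2 ratio to 0 h (vertical axis) against time in hours (horizontal axis) for RPA43, RPA190 (blue) and the 2 genes on each side of them (grey), in the order they have on the chromosome, with the direction in which each is read; 1 array per time. UBC11 and RPA43 reach 4.70 and 3.42 at 6 h, while RPA190 is at -2.52.

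Other members with all values that share an upstream region with a neighbour had no r as low. RPC40 and DBF20, a cell cycle kinase gene, had an r of 0.52 over the 7 arrays (0.35 without 6 h). RPA14 and CPR1, the gene for a cyclophilin, had an r of 0.09 (0.58 without 6 h). RPA49 and CRS1, a cysteinyl-tRNA synthetase gene, had an r of -0.45 (-0.42 without 6 h). RPA12 and RPC19 also have such a neighbour, but lack the values for an r. Over all 1131 pairs read apart the median r over the 7 arrays was 0.16. The central 90% ran from -0.71 to 0.87, a span that holds all 3 values over the 7 arrays.

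Genes whose course was most like that of RPA43 were sought among 4591 with all values and a range of at least 1; the order uses the 6 h values too and is a description. The 5 with the highest r over the 7 arrays were FZO1, a mitochondrial fusion gene (0.998), ORC1, a subunit of the origin recognition complex (0.986), PMD1 (0.981), ROM2, an exchange factor for Rho1 (0.980), and CLD1, a mitochondrial phospholipase gene (0.980). UBC11 ranked 72nd in this order. FZO1 was at 0.28, -0.05, -0.01, 0.66, 1.04, 2.26 and 1.20, a course of the same form and smaller size, 0.52 from that of RPA43 as a root mean square difference. For RPA190 the 5 were LMO1 (0.987), CDC8, the thymidylate kinase gene (0.983), ALY1, an arrestin-related gene (0.980), ENA2, a sodium pump gene (0.979), and YIR016W (0.978). ENA2 belongs to a cluster of near-identical genes, so its row may hold signal of its copies. It was the nearest in size, with -1.38, -2.03 and -1.28 at 5, 6 and 8 h. Of the other members, RPA135 ranked 833rd by likeness to RPA190 and RPC40 624th by likeness to RPA43.

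Among themselves the 8 genes formed 28 pairs, with a median r of 0.18 over the 7 arrays and 13 pairs below 0. RPA43 and RPC40 had the highest r, 0.78, followed by RPA190 and RPA135 with 0.70 and RPA135 and RRN3 with 0.69. The order changed without the 6 h array: RPA34 and RPC40 then had the highest r, 0.92 (0.61 with it), followed by RPA43 and RPA34 with 0.83 (0.18 with it) and RPA43 and RPC40 with 0.76, and RPA190 and RPA135 had 0.44. RPA49 and RPA34, partners in a dimer, had an r of 0.29, and the stalk genes RPA43 and RPA14 one of -0.55, which was -0.08 without the 6 h array. Without RPA43 and RPA190 the median over the remaining 15 pairs was 0.29, with 6 below 0. Pairs below 0 were also found in like lists: 13 of 28 among the genes specific to RNA polymerase III (median r 0.05), 4 of 10 among those of RNA polymerase II (0.11) and 15 of 28 among the RNA polymerase I initiation factors (-0.09).

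Subunits of the other RNA polymerases gave a measure of how far the genes of one enzyme lay apart. The standard deviation over the RNA polymerase I genes at 1, 3, 5 and 8 h was 0.91, 0.54, 1.23 and 1.04. Over the 8 of 10 genes specific to RNA polymerase III that have all 7 values, it was 0.29, 0.13, 0.49 and 0.55 at those times. RNA polymerase III makes transfer RNA and 5S ribosomal RNA. For RNA polymerase II, which makes mRNA, 5 of 7 specific genes have all 7 values, with 0.73, 0.29, 0.50 and 0.36. The RNA polymerase I values were the largest of the 3 enzymes at each of these times, and no test was made of the difference. The lists are not alike, however. That of RNA polymerase I includes the initiation factor RRN3 and the shared subunit RPC40, its extremes at 1 h (1.44 and -1.28). The other lists hold specific subunits only. Without these 2 genes the RNA polymerase I values at 1 h ran from -1.11 (RPA14) to 0.78 (RPA49). Those of RNA polymerase II ran from -1.15 to 0.72, about as far apart. The standard deviation without RRN3 and RPC40 was not computed, so the order may not hold for specific subunits alone, at 1 h above all. The RNA polymerase I values were close to or below the spread of all genes, at 1.08, 0.62, 0.91 and 0.93 of it. The RNA polymerase I initiation factors were spread more widely at 1 and 3 h (0.96 and 1.30). Without RPA43 and RPA190 the RNA polymerase I values were 1.06, 0.62, 1.03 and 0.88.

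**Figure D4:**
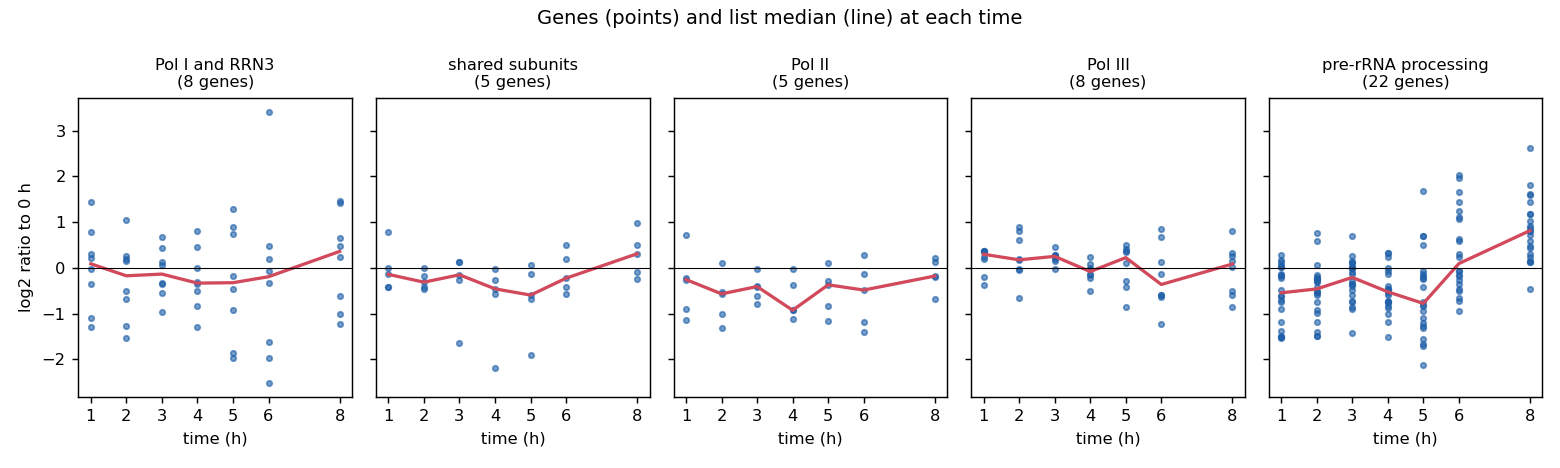
Log2 ratio to 0 h (vertical axis) against time in hours (horizontal axis) for the genes of 5 lists, counting genes with all values; each point is 1 gene on 1 array and the red line is the list median. The RNA polymerase I genes span 2.70 at 8 h and the RNA polymerase III genes 1.66, and the median of the pre-rRNA processing genes moves from -0.78 at 5 h to 0.81 at 8 h.

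The trend test called 0% of all genes in either direction, so it gives no result about the related lists. Of the 5 subunits that all 3 polymerases share (RPB5, RPO26, RPB8, RPB10 and RPC10), RPO26 (YPR187W) stood apart, with -0.003, -0.31, -1.65, -2.19, -1.91, -0.42 and 0.50 at the 7 times. It was past 2-fold below 0 h from 3 to 5 h, when the other 4 lay between -0.68 and 0.13. RPB5 had the highest value of that list, 0.98 at 8 h, then RPB8 with 0.77 at 1 h, and RPB10 was at -0.68 at 5 h.

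Of 9 factors that bring RNA polymerase I to its promoter 8 have all 7 values, and the extremes were on opposite sides throughout. RRN11 (YML043C), a subunit of core factor, was at 1.51, 2.11, 2.91, 2.62, 2.30, 2.18 and 1.00, past 2-fold above 0 h up to 6 h and just short of it at 8 h. HMO1 (YDR174W), a high mobility group protein of ribosomal DNA and ribosomal protein genes, was at -1.36, -1.17, -1.61, -2.09, -1.72, -1.45 and -1.13, at least 2-fold below 0 h at every time. RRN9 of the upstream activating factor was at 1.06 at 1 h and RRN10, of the same factor, at -0.76 at 6 h. The list median ran from 0.44 at 1 h to -0.28 at 8 h.

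The list for ribosomal DNA termination, fork block and silencing held 9 genes, 8 with all 7 values. CDC14, the phosphatase kept in the nucleolus until anaphase, was highest at 5 h with 2.44, and RNT1, an RNase of pre-rRNA, at 1.04 at 3 h. NSI1, a terminator-binding protein gene, was lowest at 6 h with -1.71, and REB1, its relative, at 1 h with -1.69. The list median lay between -0.54 (6 h) and 0.23 (5 h).

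Pre-rRNA processing genes, which act on the transcript of RNA polymerase I, were the list with the most common course. Of 25, 22 have all 7 values, and their 231 pairs had a median r of 0.58, with 15 below 0. Their median was -0.55, -0.46, -0.21, -0.52, -0.78, 0.09 and 0.81 at the 7 times, so that it was below 0 h up to 5 h and above it at 8 h. Genes at least 2-fold below 0 h numbered 8 at 5 h and 0 at 8 h, and those at least 2-fold above it 1 at 5 h and 8 at 8 h, beside 17.4% and 10.8% of all genes below and 16.3% and 12.3% above at these times. In the fit 21 of the 22 slopes were positive (median 0.11 log2 per hour). For the RNA polymerase I genes 4 of 8 were positive (median 0.02), near the share over all genes, where 2564 of 5635 were positive (median -0.02). DBP3, an RNA helicase, had the steepest, 0.58 ± 0.08 (SE; limma adjusted p = 0.0656), and was at 2.62 at 8 h. SNU13, a protein of small nucleolar RNPs, was at 2.03 at 6 h, and UTP5 and GAR1 were lowest at 5 h with -2.11 and -1.70. Like this list's median, RPC40, RPA34, RPA43 and RPA14 had a higher value at 8 h than at 5 h and at 1 h, and RPA190, RPA135, RPA49 and RRN3 were lower at 8 h than at 1 h.

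Of 12 regulators of ribosome biogenesis genes 11 have all 7 values. SCH9, a kinase downstream of TORC1, was highest at 8 h with 1.47, and DOT6, a repressor of ribosome biogenesis genes, at 4 h with 1.40. RAP1 was lowest at 1 h with -1.67 and SFP1, an activator of these genes, at 6 h with -1.28. The list median stayed between -0.21 at 5 h and 0.21 at 6 h.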

How the data were processed

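Arrays of 7 time points of the Spo11Y135F mutant were analysed, 1 column each. Values were deposited on a log2 scale; according to the labels and the design text they hold Cy5 over Cy3, set against the 0 h level by the authors. How the 2 cultures enter a column, and the platform, scanner, background correction, normalization and filters, are not stated in the labels. Signal over background is therefore unknown, and the number of arrays limits the precision. The values were used as deposited.

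Members were matched by systematic name. Gene names, gene order and, through systematic names, reading direction came from the R64 RefSeq table (5655 of 6141 names matched); its coordinates are not printed, because no source used here names the genome build of the array. The members and the 9 further gene lists were chosen with earlier results of these data known. The named genes are the members, the genes beside RPA43 and RPA190 and those sharing an upstream region with a member, the 5 most like RPA43 and RPA190, and of each list the 2 highest maxima and 2 lowest minima and any gene past the test; RPC10 and the further values of RPO26, RRN11 and HMO1 were added after their values were seen. A planned motif search in promoters was not run.

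Slopes come from limma 3.58.1 under R 4.3.3 (lmFit, eBayes; 4 residual degrees of freedom; Benjamini-Hochberg over 5635 genes with a value on the 6 arrays). Successive samples of a time course depend on each other, so these p-values serve as a ranking. The fit was tested on simulated data. Alternatives were column centring, quantile normalization, a comparison of later with earlier times, and leaving out single arrays; leaving out arrays of the later with earlier comparison, centring it and quantile normalizing it were chosen after seeing the data. Python 3.11.15 with pandas 2.3.3, numpy 2.4.6 and matplotlib 3.10.9 did the rest.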

Additional observations from a re-analysis of the deposited data

How the results depend on the processing

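No paired analysis was possible because each time has 1 array. Over all genes, 0 rose and 0 fell in the limma slope fit (1150 at an unadjusted p of 0.05). With the 6 h array included 75 rose and 40 fell, after quantile normalization 24 and 39, and in the comparison of 4, 5 and 8 h with 1, 2 and 3 h 227 and 25; leaving out 1 array gave 0 to 302 rising and 0 to 226 falling genes, with the highest numbers without 8 h and 9 and 1 without 5 h. Of the members 1 rose, RPA43, in the comparison of later with earlier times, and leaving out 1 array gave 0 rising members and 0 to 1 falling (RRN3, without 8 h). Centring the columns and keeping only rows with all 7 values called no gene. The slope of RPA49, near 0, changed sign to 0.0084 with centred columns and lay between -0.0292 and 0.0397 when 1 array was left out. That of RPA14 changed to -0.0031 with 6 h included and to -0.14 as the later minus the earlier mean, and lay between -0.15 and 0.079 when 1 array was left out.

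Quantile normalization, which narrows the 6 h column, brought RPA43 minus RPA190 to 2.68 at 5 h and 4.41 at 6 h, the 6 h value of RPA43 to 2.30 and its distance from the mean of 5 and 8 h to 1.04, without changing their sign. It also gave 1 member below 0 h past 2-fold at 3 h, and centring gave 1 in place of 2 at 8 h, losing RPA135. With 1.5-fold in place of 2-fold, members above 0 h numbered 2, 1, 1, 1, 3, 1 and 3 at 1, 2, 3, 4, 5, 6 and 8 h. Those below numbered 2, 3, 1, 2, 3, 3 and 3. The share of all genes past 1.5-fold was not computed, so these counts give no result about the group. The causes of these changes were not tested. The median of the members moved by less than 0.43, the median scatter of single genes around the line, in all 14 recomputations. That limit is wide, since the medians themselves lay between -0.33 and 0.36. None of them changed sign, but at 6 h the median went from -0.19 to -0.05 with centred columns.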

Other observations

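Further genes of the polymerases have a value at 6 h alone, so they enter no comparison. RPB2, which pairs with the largest subunit of RNA polymerase II, was at 2.12, whereas RPO21, that largest subunit, and RPB3 were at -1.18 and -1.40 on the same array. RPC17, of the stalk of RNA polymerase III, was at -1.21 and RET1, a large subunit of that enzyme, at 0.76. RRN5 of the upstream activating factor was at -0.25. At this time RPC37 and RPC31 were the lowest and highest of the RNA polymerase III genes with all values, at -1.22 and 0.84. RPC11 was at 0.88 at 2 h, and RPB11 at 0.72 at 1 h.

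The list of RNA polymerase III initiation factors also holds MAF1, the repressor of that enzyme. MAF1 was highest at 1 h with 1.65 and BDP1 at 6 h with 1.72. TFC8 was lowest at 5 h with -1.33, and TFC4, measured at 6 h alone, was at -1.28. None of the 6 genes fitted from this list passed the limma slope test, which called 0% of all genes. At an unadjusted p of 0.05, 0 of the 6 passed, beside 1150 of all 5635 genes. These counts give no result about the list.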
